A study of Mus musculus with 100 samples.

Results

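The Kcnq1ot1 cluster is an imprinted domain on distal chromosome 7 of the mouse. Its 8 genes, Kcnq1ot1, Kcnq1, Cdkn1c, Phlda2, Slc22a18, Cd81, Tssc4 and Ascl2, were chosen by name, and 7 of them were found among the 25965 genes of the deposited expression table. Kcnq1ot1, the non-coding RNA that gives the cluster its name, was not analysed here. In the cluster a CpG-rich control region inside Kcnq1 carries DNA methylation on the maternal copy. The paternal copy is unmethylated and starts the long antisense RNA Kcnq1ot1, which keeps the neighbouring protein-coding genes silent in cis. Cdkn1c, Phlda2 and Slc22a18 are the inner genes, known as maternally expressed in embryo and placenta, whereas imprinting of the outer genes Ascl2, Cd81 and Tssc4 is known mainly from placenta.

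The libraries came from F1 cells that carry a C57BL/6J (BL6) maternal and a CAST/EiJ (CAST) paternal genome, so reads over strain differences report the parental allele. Female MEFs are fibroblasts of a single mid-gestation F1 embryo whose BL6 mother, of the i4F line, brought a doxycycline-inducible Oct4, Sox2, Klf4 and c-Myc cassette and, in Rosa26, the rtTA transactivator. The iPSC lines F KSR2 and F KSR4 were made from the female MEFs and M KSR3 and M KSR5 from MEFs of a male embryo, by doxycycline in medium with Knockout Serum Replacement (KSR) and LIF, with colonies picked onto feeder cells. TX 2i ESCs are the female BL6 by CAST embryonic stem cell line TX1072, grown with serum, LIF and inhibitors of MEK and GSK3 (2i). Each of the 6 groups had 3 RNA libraries. Each line is 1 clone or 1 embryo, so line, sex and embryo are repeated only within a line. The p-values between groups measure the spread between libraries of a line. Where a test of sex pools the libraries of both lines of a sex, the spread also holds the difference between these lines. The other 82 of the 100 samples of the series were methylation assays and were not analysed here. Since BL6 was the mother throughout, parent of origin and strain cannot be told apart. MEFs of the male embryo had no RNA library. Against MEFs, the male lines thus also differ in sex and embryo, and were not compared with their own starting cells.

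The libraries held 13183036 to 17921280 reads over genes, of which 17.7 to 19.9% could be given to an allele. Levels are log2 RPM, reads scaled to a common library total, without length correction. Over 222 other genes of distal chromosome 7 the maternal share was 49.5 to 53.1% in every library, so both parental copies of the chromosome end were read in near equal number. Summed markers of pluripotent cells, such as Pou5f1 and Nanog, were 2751 to 7245 RPM in the 5 pluripotent groups and 1.40 to 2.29 RPM in MEFs, as the labels have it.

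The start regions of 3 genes are shown because Kcnq1ot1 is the transcript that defines the cluster and because Phlda2 and Slc22a18 are the neighbours whose levels followed that of Cdkn1c most closely below. The sequences are RefSeq's for GRCm38.p6, 250 bases before to 50 after the start, each read along the gene's own strand. Capitals mark the CCAAT box, searched as CCAAT and, for the other strand, ATTGG. They lie at chr7:143296498-143296797 (minus strand, the antisense promoter within an intron of Kcnq1), chr7:143502475-143502774 (minus strand) and chr7:143473539-143473838 (plus strand).
Kcnq1ot1: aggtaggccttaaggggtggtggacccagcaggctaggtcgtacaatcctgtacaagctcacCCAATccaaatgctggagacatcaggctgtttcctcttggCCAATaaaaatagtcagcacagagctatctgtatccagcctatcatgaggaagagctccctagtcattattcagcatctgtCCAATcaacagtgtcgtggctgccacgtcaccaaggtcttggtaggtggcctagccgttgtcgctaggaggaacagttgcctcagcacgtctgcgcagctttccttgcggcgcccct
Phlda2: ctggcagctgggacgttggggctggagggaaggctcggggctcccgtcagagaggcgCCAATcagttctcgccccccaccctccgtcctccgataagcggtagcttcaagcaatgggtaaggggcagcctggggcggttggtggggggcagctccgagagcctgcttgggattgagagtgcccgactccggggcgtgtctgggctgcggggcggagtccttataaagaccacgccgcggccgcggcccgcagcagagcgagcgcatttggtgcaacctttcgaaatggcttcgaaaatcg
Slc22a18: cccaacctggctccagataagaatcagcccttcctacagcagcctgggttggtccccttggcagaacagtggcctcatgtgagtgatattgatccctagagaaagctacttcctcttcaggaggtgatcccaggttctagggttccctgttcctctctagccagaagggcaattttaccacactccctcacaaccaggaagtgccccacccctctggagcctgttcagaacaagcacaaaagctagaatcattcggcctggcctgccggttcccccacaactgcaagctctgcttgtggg
The Kcnq1ot1 start held 3 CCAAT boxes, the Phlda2 start 1 and the Slc22a18 start 0, and 37.4% of 32851 promoters of this length held at least 1. CpG pairs numbered 9 at Kcnq1ot1, 26 at Phlda2 and 2 at Slc22a18, against a median of 7 over all promoters. The letters TGCCGC (or GCGGCA), the core bound by ZFP57, a protector of imprints, were in 0 of the 3 and in 11.6% of all promoters. Promoters were matched for 6 of the 8 genes, not for Kcnq1 and Cdkn1c.

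Cdkn1c encodes p57KIP2, an inhibitor of cyclin-dependent kinases that slows growth, and lies at chr7:143458350-143461050 on the minus strand (GRCm38). It was read from the maternal allele alone in MEFs, fell in all 5 pluripotent groups, and separated the iPSC lines into F KSR4 and M KSR5 with more of it and F KSR2 and M KSR3 with less. In MEFs it had 891, 1492 and 1629 reads. In F KSR4 it had 342, 358 and 775 reads and in M KSR5 199, 439 and 455. In F KSR2 it had 112, 131 and 137 reads, in M KSR3 48, 108 and 86, and in TX 2i ESCs 21, 50 and 26. Every MEF library was thus above every pluripotent one, and no library of F KSR4 or M KSR5 overlapped one of F KSR2, M KSR3 or TX 2i ESCs.

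The mean log2 level of Cdkn1c (± SD, n = 3) was highest in MEFs at 6.14 ± 0.34, then 4.75 ± 0.83 in F KSR4, 4.27 ± 0.70 in M KSR5, 2.84 ± 0.21 in F KSR2 and 2.07 ± 0.52 in M KSR3, and lowest in TX 2i ESCs at 0.79 ± 0.59. Neighbours in this order did not overlap, except F KSR4 and M KSR5. Against MEFs, limma gave log2 differences of -1.39 in F KSR4 (adjusted p = 0.00925), -1.88 in M KSR5 (adjusted p = 0.000996), -3.30 in F KSR2 (adjusted p = 3.32e-06), -4.08 in M KSR3 (adjusted p = 2.65e-07) and, the largest, -5.35 in TX 2i ESCs (adjusted p = 8.47e-09). Such falls were common, since 31.2, 28.9, 29.0, 28.2 and 29.0% of all genes tested fell against MEFs in these comparisons, in the same order.

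**Figure D1:**
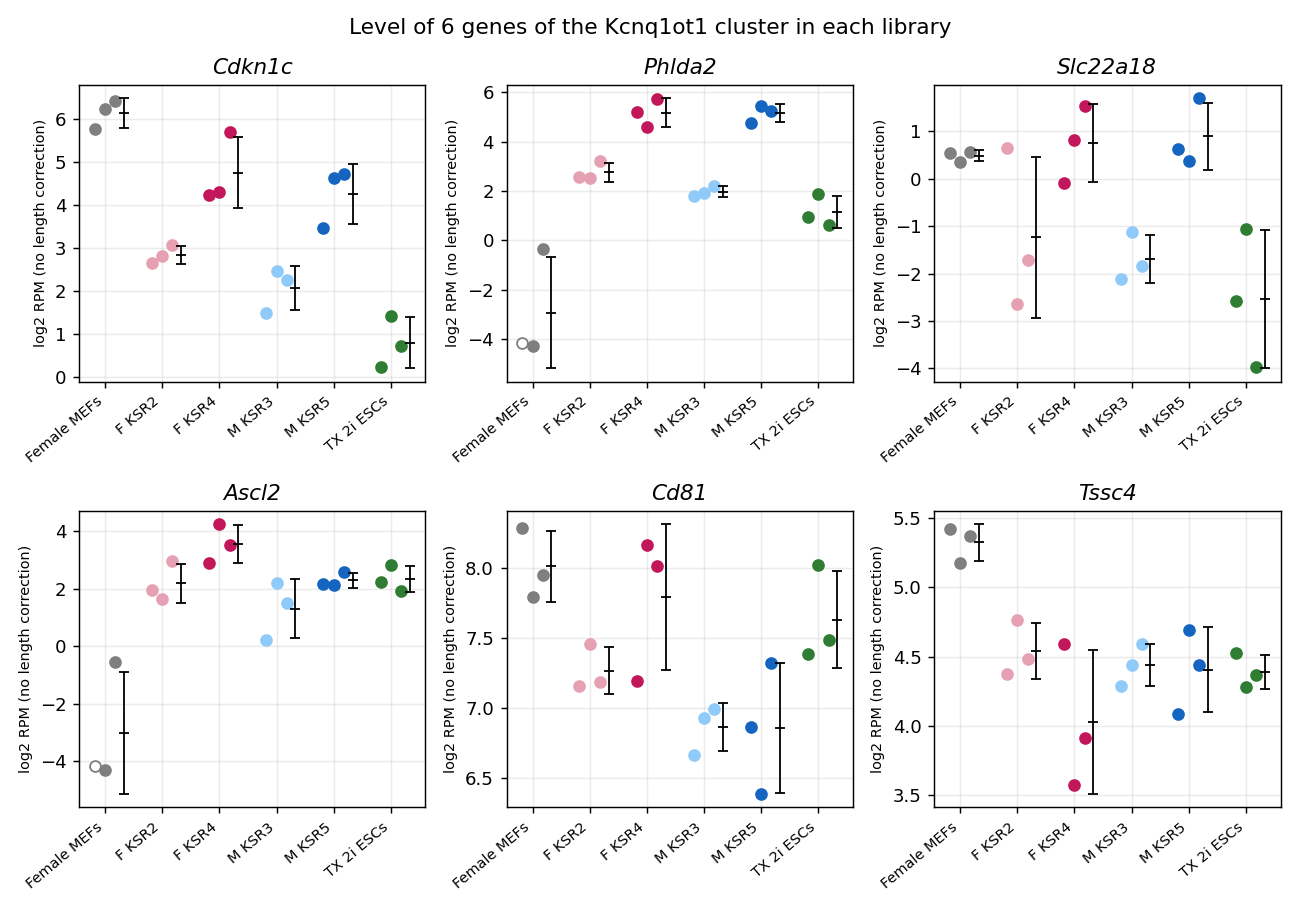
Level of 6 genes of the cluster in each library, as log2 RPM without length correction, by group. Points are libraries, open points have 0 reads, and the black mark and bar give the mean and SD of 3 libraries. Cdkn1c and Phlda2 are higher in F KSR4 and M KSR5 than in F KSR2 and M KSR3 with no overlap of libraries, while Phlda2 and Ascl2 have 0 to 15 reads in MEFs.

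The maternal share of Cdkn1c was high in MEFs, F KSR4 and M KSR5 and lower or too poorly read in the other groups, although the libraries of F KSR2 overlapped those of M KSR5. In MEFs they were 62, 101 and 134 maternal and 0 paternal reads in the 3 libraries, a maternal share of 100% in each, and 0 of 297 reads allows a paternal share of up to 1.01%. F KSR4 had 25, 30 and 36 maternal against 2, 2 and 3 paternal reads, a share of 92.9% ± 0.76 (SD, n = 3). M KSR5 had 8, 29 and 22 maternal against 1, 6 and 7 paternal reads, a share of 82.5% ± 6.5 (SD, n = 3). These lines therefore had a mostly maternal signal, with a paternal part that was not seen in the female MEFs.

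In F KSR2 the maternal reads were 2, 7 and 4 and the paternal reads 7, 1 and 4, a share of 53.2% ± 32.8 (SD, n = 3) that ran from 22.2 to 87.5% on 8 or 9 reads a library. M KSR3 had 2, 2 and 0 maternal against 1, 6 and 3 paternal reads, and TX 2i ESCs had 0 maternal and 0, 2 and 1 paternal reads. Of the pooled reads of M KSR3, 28.6% were maternal, with an exact 95% interval of 8.39 to 58.1% that covers counting error only. The 3 reads of TX 2i ESCs are too few to give a share.

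On the log2 ratio of maternal to paternal reads, limma found a lower maternal share than in MEFs in each of the 3 lines with enough reads, by -3.34 in F KSR4 (adjusted p = 0.00386), -4.64 in M KSR5 (adjusted p = 0.000102) and -6.38 in F KSR2 (adjusted p = 1.45e-06). With 1 read added to each allele, the ratio in MEFs, which had no paternal read, grew with depth. Allelic reads over 3 libraries were 297 in MEFs, 98 in F KSR4, 73 in M KSR5 and 25 in F KSR2. The sizes against MEFs, and their p-values, thus hold depth as well as share. Cdkn1c was 1 of 3 cluster genes tested and the only one called in each of these comparisons, where 3.52, 2.86 and 5.05% of all genes tested were called lower. F KSR4 had a higher maternal share than F KSR2, by 3.04 ± 0.67 (SE) on this log2 scale (limma adjusted p = 0.00561), where 1 of 5 cluster genes tested was called and 3.98% of all genes were called higher. The shares in percent did not overlap between F KSR2 and F KSR4, nor between MEFs and any of the 3 lines, and an exact permutation test of 3 against 3 libraries gave p = 0.1 for each, the smallest it can give. Cdkn1c could not be tested in M KSR3 or TX 2i ESCs, where fewer than 2 libraries had 5 allelic reads.

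Counted over the 3 libraries of a line, the maternal reads of Cdkn1c were 91 in F KSR4 and 59 in M KSR5 but 13 in F KSR2 and 4 in M KSR3. The paternal reads were 7, 14, 12 and 10 in the same order. Per reads on genes, the paternal allele stood at 0.158 RPM in F KSR4 (exact Poisson 95% interval 0.0636 to 0.326), 0.296 in M KSR5 (0.162 to 0.497), 0.260 in F KSR2 (0.134 to 0.453) and 0.208 in M KSR3 (0.0997 to 0.382). These intervals, which cover counting error only, overlap, whereas those of the maternal allele, 2.06 (1.65 to 2.52), 1.25 (0.95 to 1.61), 0.281 (0.150 to 0.481) and 0.0831 (0.0227 to 0.213) RPM, separate F KSR4 and M KSR5 from F KSR2 and M KSR3. In MEFs the maternal allele stood at 5.89 RPM (5.24 to 6.60) and the paternal allele at 0 (0 to 0.0732). This paternal interval overlaps that of F KSR4 and lies below those of M KSR5, F KSR2 and M KSR3.

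**Figure D2:**
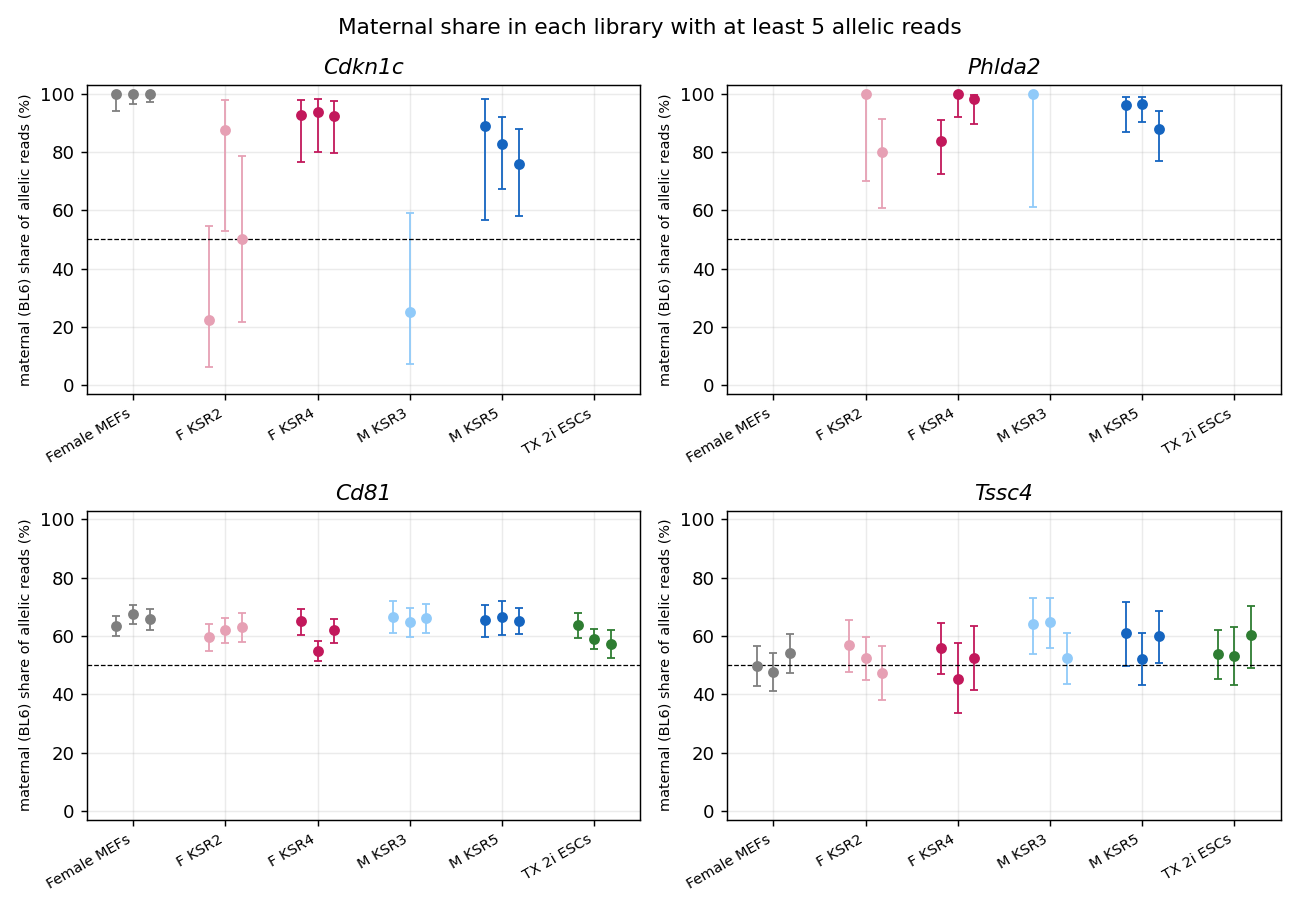
Maternal (BL6) share of allelic reads in percent, by group, for libraries with at least 5 allelic reads. Points are libraries and bars are 95% Wilson intervals, which cover counting error only. Cdkn1c is at 100% in MEFs, between 75.9 and 93.8% in F KSR4 and M KSR5 and between 22.2 and 87.5% in F KSR2, while Cd81 and Tssc4 stay between 45.3 and 67.5% in every group.

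Phlda2, which encodes a pleckstrin homology protein that restrains growth of the placenta, lies at chr7:143501545-143502541 on the minus strand. It was almost absent from MEFs, with 0, 1 and 15 reads, and was read in all pluripotent groups. It had 666, 438 and 796 reads in F KSR4 and 496, 786 and 659 in M KSR5. It had 105, 107 and 152 reads in F KSR2, 60, 74 and 83 in M KSR3, and only 34, 68 and 24 in TX 2i ESCs. As with Cdkn1c, F KSR4 and M KSR5 did not overlap F KSR2, M KSR3 or TX 2i ESCs, although the order against MEFs was the opposite.

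The mean level of Phlda2 (± SD, n = 3) was 38.2 ± 14.8 RPM in F KSR4 and 36.5 ± 8.44 in M KSR5, against 6.95 ± 1.99 in F KSR2 and 3.97 ± 0.579 in M KSR3, 2.36 ± 1.12 in TX 2i ESCs and 0.280 ± 0.441 in MEFs. In limma it rose against MEFs in all 5 groups, with log2 differences of 4.08 in TX 2i ESCs (adjusted p = 0.000100) to 8.12 in F KSR4 (adjusted p = 3.98e-08), and 34.6% of all genes tested rose in F KSR4, 39.0% in M KSR5, 38.0% in F KSR2, 39.4% in M KSR3 and, for TX 2i ESCs, 37.5%. The size of these differences depends on the value given to the MEF library without a read, and with 1 RPM added before the logarithm the largest was 4.92.

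Phlda2 was mostly maternal in F KSR4, M KSR5 and F KSR2, while M KSR3 and TX 2i ESCs had few allelic reads. F KSR4 had 51, 44 and 50 maternal against 10, 0 and 1 paternal reads, a share of 93.9% ± 9.0, and M KSR5 had 49, 84 and 50 against 2, 3 and 7, a share of 93.4% ± 5.0 (SD, n = 3). F KSR2 had 4, 9 and 20 maternal against 0, 0 and 5 paternal reads. M KSR3 had 6, 4 and 0 maternal against 0, 0 and 4 paternal reads, and its replicate 3 was the only one of the 15 with paternal reads alone. TX 2i ESCs had 1, 4 and 1 maternal reads and 0 paternal. Over the 15 pluripotent libraries 377 of 409 allelic reads of Phlda2 were maternal (92.2%), most of them read in F KSR4 and M KSR5. In F KSR4 the pooled share of Phlda2, 92.9%, was that of Cdkn1c, 92.9%. The share of Phlda2 was not called different between F KSR4 and F KSR2 (1.57 ± 0.88 SE on the log2 ratio scale, limma adjusted p = 0.432), the only comparison in which it had enough reads.

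Slc22a18, a transporter of organic cations, lies at chr7:143473721-143499334 on the plus strand between Cdkn1c and Phlda2 and had the fewest reads of the inner genes in every pluripotent group, though not in MEFs. It had 24, 25 and 28 reads in MEFs, 17, 32 and 43 in F KSR4 and 28, 23 and 56 in M KSR5. It had 28, 3 and 5 reads in F KSR2, 4, 9 and 5 in M KSR3 and 3, 9 and 1 in TX 2i ESCs. F KSR4 and M KSR5 thus stood near MEFs, and M KSR3 and TX 2i ESCs below them. Against MEFs limma called a fall in M KSR3 (log2 difference -2.18, adjusted p = 0.0212) and in TX 2i ESCs (-3.02, adjusted p = 0.00266), while F KSR2 at -1.72 missed the threshold (adjusted p = 0.0620). F KSR2 would be called with median of ratios scaling and without F KSR2 replicate 1 or TX 2i ESCs replicate 2 or 3, with adjusted p down to 0.00512 and a difference of up to -2.66. The call in M KSR3 was lost without MEF replicate 1 or 3, without M KSR3 replicate 1 or 3, and without the filter on low values, with adjusted p up to 0.0660. All 18 allelic reads of Slc22a18 in the pluripotent libraries were maternal, 13 of them in F KSR4, and in MEFs 3 were maternal and 1 paternal.

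Kcnq1, the potassium channel gene that hosts the control region, spans chr7:143107254-143427042 on the plus strand. It had 0 to 7 reads in any library and fewer than 3 reads in 14 of the 18, so it failed the filter on low values and was not tested.

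Ascl2, a transcription factor needed for the spongiotrophoblast of the placenta, is the outermost gene, at chr7:142966822-142969264 on the minus strand. It had 0, 1 and 13 reads in MEFs. F KSR4 had 137, 345 and 170 reads and M KSR5 had 81, 79 and 104. F KSR2 had 69, 59 and 128 reads, M KSR3 had 20, 91 and 51, and TX 2i ESCs had 85, 134 and 60. Every pluripotent library was above every MEF library. F KSR4 lay above M KSR5, M KSR3 and TX 2i ESCs with no overlap in log2 level and overlapped F KSR2, and the other pluripotent groups overlapped one another. Against MEFs the log2 differences ran from 4.32 in M KSR3 to 6.57 in F KSR4 (limma adjusted p at most 9.83e-05). Its allelic reads were close to even in the pooled libraries of F KSR4, with 47.2% maternal (exact 95% interval 35.3 to 59.3%), and in M KSR5 with 56.0% (34.9 to 75.6%). F KSR2 had 66.7% (43.0 to 85.4%), TX 2i ESCs 43.5% (23.2 to 65.5%) and M KSR3 87.5% (47.3 to 99.7%) on 8 reads. The maternal excess of Phlda2 was not seen at Ascl2 in F KSR4, where the 2 intervals were apart.

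Cd81, a tetraspanin of the cell surface, lies at chr7:143052739-143067934 and Tssc4, a factor of the splicing machinery, at chr7:143069249-143071093, both on the plus strand. Cd81 had 4359 to 5119 reads in MEFs, 2808 to 4867 in TX 2i ESCs and 2655 to 5187 in F KSR4. It had 2386 to 3281 reads in F KSR2, 1490 to 2756 in M KSR5 and 1744 to 2377 in M KSR3. Limma called a fall against MEFs in F KSR2 (log2 difference -0.74, adjusted p = 0.0179), M KSR3 (-1.15, adjusted p = 0.000868) and M KSR5 (-1.15, adjusted p = 0.000833), and none in F KSR4 (-0.22, adjusted p = 0.468) or TX 2i ESCs (-0.38, adjusted p = 0.208). The call in F KSR2 was lost without MEF replicate 1 or F KSR2 replicate 1 or 3, with adjusted p up to 0.0782. Tssc4 had 704 to 790 reads in MEFs and 215 to 508 in the pluripotent libraries, and fell in all 5 groups, by log2 differences of -0.78 in F KSR2 to -1.30 in F KSR4 (limma adjusted p at most 0.00782). Scaling by the median of ratios moved all genes against MEFs by -0.14 to -0.30 on the log2 scale and left these directions as they were.

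Neither gene was called in maternal share in any comparison. The maternal share of Cd81 (± SD, n = 3) was 65.6% ± 2.0 in MEFs, 60.6% ± 5.2 in F KSR4, 65.7% ± 0.72 in M KSR5, 61.5% ± 1.7 in F KSR2 and 65.9% ± 0.96 in M KSR3, and TX 2i ESCs had 60.0% ± 3.3. Tssc4 was 50.5% ± 3.3, 51.3% ± 5.4, 57.8% ± 4.9, 52.2% ± 4.8, 60.5% ± 7.0 and 55.8% ± 3.9 maternal in the same order. All group means thus lay between 50.5 and 65.9%, and limma called neither gene against MEFs, where it called 11.4% of all genes in F KSR4, 11.1% in M KSR5, 16.2% in F KSR2, 20.7% in M KSR3 and, for TX 2i ESCs, 17.8%. Nor did it between F KSR4 and F KSR2 (9.21% of all genes called) or M KSR5 and M KSR3 (11.0%). Between MEFs and F KSR2, where Cdkn1c moved by -6.38 on the log2 ratio, Cd81 moved by -0.25 (adjusted p = 0.303) and Tssc4 by 0.09 (adjusted p = 0.876). The -6.38 also holds the lower allelic depth of Cdkn1c in F KSR2, so these sizes do not compare on equal terms.

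Counted together against MEFs, of the 6 cluster genes that passed the filter on low values, 2 rose and 3 fell in F KSR2, 2 rose and 2 fell in F KSR4, 2 rose and 4 fell in M KSR3, 2 rose and 3 fell in M KSR5, and 2 rose and 3 fell in TX 2i ESCs. These comparisons called 67.0, 65.8, 67.6, 67.9 and 66.5% of all 14632 genes tested, so that a call against MEFs was the rule for any gene. In bulk RNA, fewer cells of a type and less RNA per cell cannot be told apart. The summed level of 10 fibroblast markers was 0.0381 to 0.675% of the MEF mean in the KSR-iPSC libraries, with 0 to 2 of the 10 at 0 reads, while Cdkn1c stood at 3.88 to 72.7% of its MEF mean in them.

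The study's lines of the same sex came from the same MEFs, and comparing them asks how far clones differed in the cluster. In F KSR4 against F KSR2, Cdkn1c rose by a log2 difference of 1.91 ± 0.43 (SE, limma adjusted p = 0.0396) and was the only 1 of 6 cluster genes called, against 1.14% of all genes, 0.567% being higher. Phlda2 at 2.42 ± 0.73 (adjusted p = 0.112) and Slc22a18 at 1.99 ± 0.79 (adjusted p = 0.211) differed by as much in limma without passing. Ascl2 at 1.37, Cd81 at 0.52 and Tssc4 at -0.52 were not called either. The library values of Cdkn1c and Phlda2 did not overlap between the lines, whereas those of Slc22a18 did through 1 library of F KSR2 with 28 reads. The call of Cdkn1c was near the threshold, with adjusted p from 0.00845 to 0.126 over 24 alternatives, and it was lost without F KSR2 replicate 1, 2 or 3 or F KSR4 replicate 3, among others, while the log2 difference stayed between 1.43 and 2.17. The background was unstable as well. Over all genes, the 167 calls became 66 without F KSR2 replicate 1 and 1660 without F KSR4 replicate 1. Relative to counting noise, the libraries of F KSR4 differed from one another more than those of any other group.

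In M KSR5 against M KSR3, Cdkn1c rose by 2.20 ± 0.43 (SE, limma adjusted p = 0.00979) and Phlda2 by 3.19 ± 0.73 (adjusted p = 0.0202), 2 of 6 cluster genes against 4.48% of all genes, 2.10% being higher. Slc22a18 at 2.59 ± 0.79 (adjusted p = 0.0721) missed the threshold, although its libraries did not overlap between the lines. Ascl2 at 0.98, Cd81 at -0.01 and Tssc4 at -0.03 were not called. Over all genes, the 656 calls became 145 without M KSR3 replicate 3 and 1182 without F KSR4 replicate 2. Cdkn1c lost its call only without M KSR5 replicate 2 (adjusted p = 0.0511). Phlda2 lost it without any 1 of 5 libraries, M KSR3 replicates 1 to 3 and M KSR5 replicates 1 and 2 (adjusted p up to 0.0858), with log2 differences of 3.04 to 3.38.

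Among the cluster genes, both comparisons had their larger differences on the same side of the Kcnq1ot1 start, which did not hold once the neighbours were counted, since Igf2 and H19, further out on the other side, stood at 2.52 and 1.62 in M KSR5 against M KSR3. The starts of Cdkn1c, Slc22a18 and Phlda2 lie 165, 177 and 206 kb beyond it, and those of Kcnq1, Tssc4, Cd81 and Ascl2 at -189, -227, -244 and -327 kb. Kcnq1ot1 itself spans chr7:143203458-143296549 on the minus strand in the annotation (GENCODE M21). The median log2 difference of the 6 genes was 1.64 in F KSR4 against F KSR2, where the median of all genes was -0.14, and 1.59 in M KSR5 against M KSR3, where it was -0.01.

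**Figure D3:**
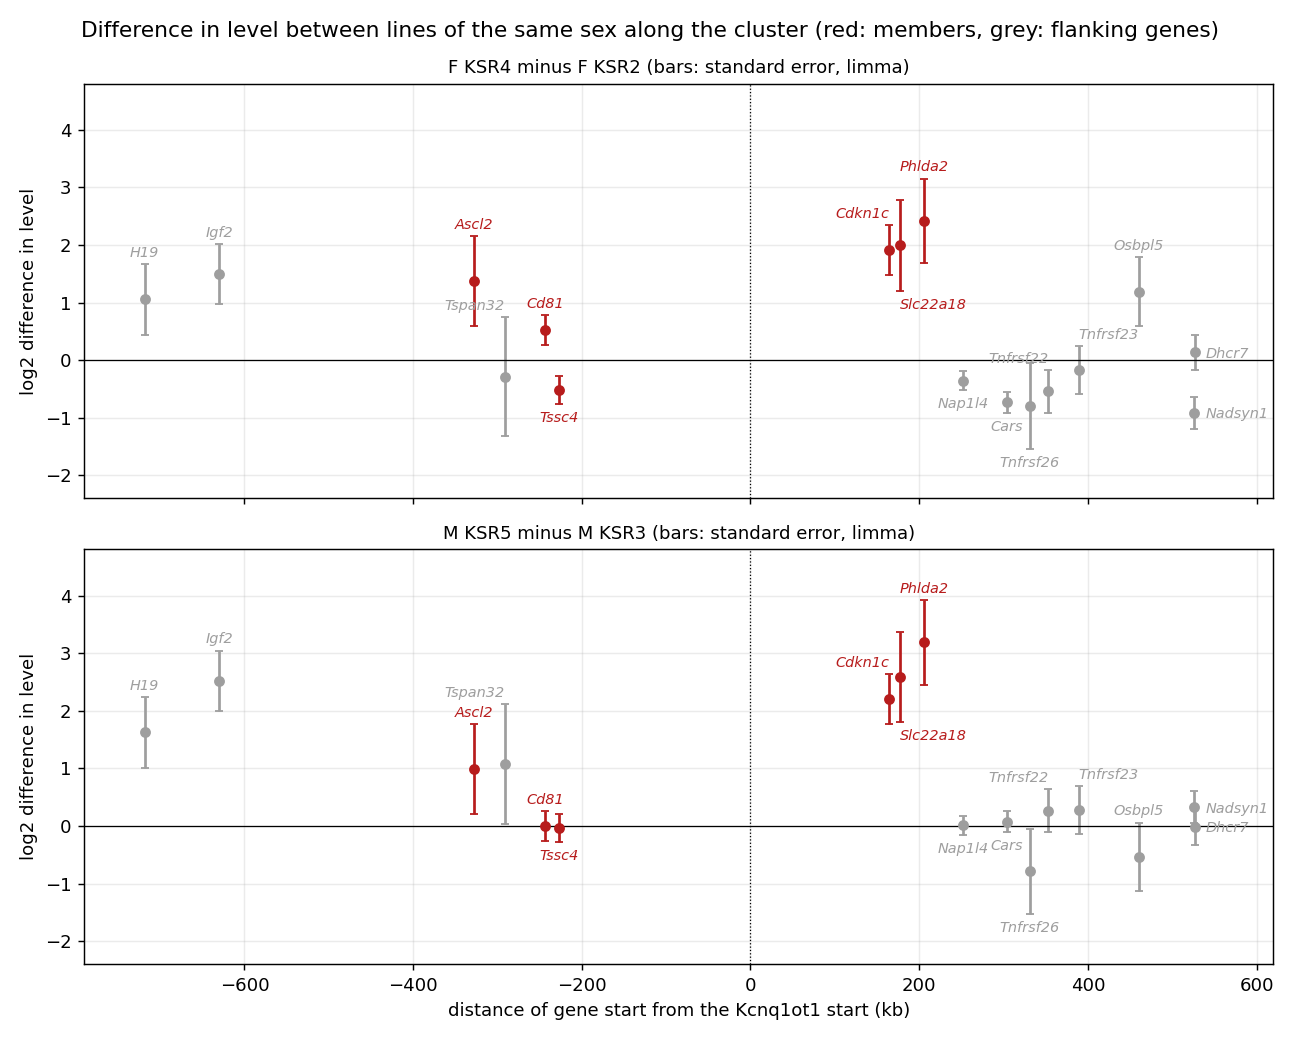
Log2 difference in level between the 2 female lines (top) and the 2 male lines (bottom), by distance of the gene start from the Kcnq1ot1 start in kb. Points are genes of the cluster (red) and its neighbours (grey), and bars are standard errors from limma. Cdkn1c, Slc22a18 and Phlda2, at 165 to 206 kb, stand at 1.91 to 3.19, while Cd81 and Tssc4 stand at -0.52 to 0.52. On the other side Ascl2 stands at 1.37 and 0.98 and Igf2 at 1.49 and 2.52 in the female and male lines.

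Over the 15 pluripotent libraries Phlda2 had the pattern most like that of Cdkn1c among all genes tested (Pearson r = 0.959 on log2 levels) and Slc22a18 ranked 32 (r = 0.833). Ascl2 had r = 0.535 and rank 1152, Cd81 r = 0.078 and rank 5607, and Tssc4 r = -0.280 and rank 10275. The libraries come from 5 lines and are not independent, so these are descriptions. Within lines, after the line means were taken away, r with Cdkn1c was 0.755 for Phlda2, 0.453 for Ascl2, 0.426 for Cd81, 0.378 for Slc22a18 and 0.0905 for Tssc4, so that Slc22a18 was then below the outer genes Ascl2 and Cd81. Over all 18 libraries, MEFs included, the genes most like Cdkn1c were Crabp2, a retinoic acid carrier (r = 0.947), Gadd45g, a stress-response gene (r = 0.903), and Spon1, an extracellular matrix gene (r = 0.896). The same search could not be made for Kcnq1ot1.

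**Figure D4:**
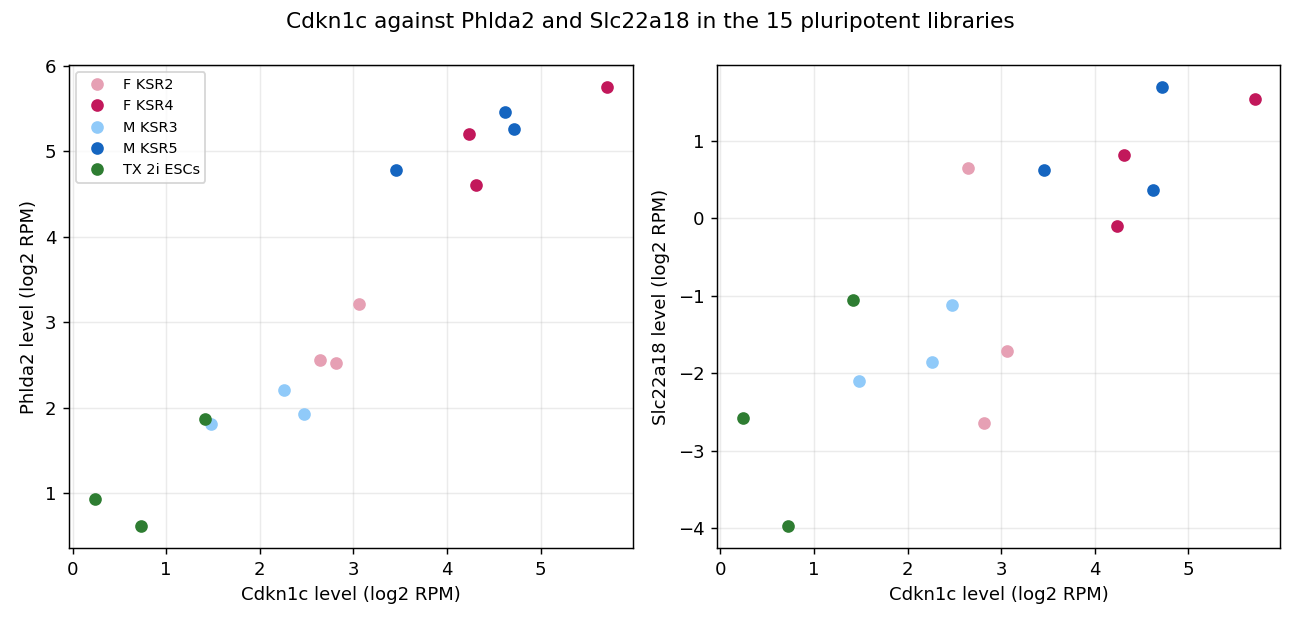
Level of Phlda2 (left) and Slc22a18 (right) against that of Cdkn1c, all in log2 RPM, in the 15 pluripotent libraries. Points are libraries, coloured by line. TX 2i ESCs lie at the lower left and F KSR4 and M KSR5 at the upper right, with r = 0.959 for Phlda2 and r = 0.833 for Slc22a18.

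The 4 KSR-iPSC lines were set against TX 2i ESCs, the embryonic stem cells among the RNA libraries. In the study's methylation assays this line had lost most of the parental difference at imprinted regions, so it does not stand for normal imprinting. Cdkn1c (log2 difference 2.69 ± 0.34 SE, limma adjusted p = 3.67e-05), Phlda2 (2.64 ± 0.58, adjusted p = 0.00326) and Slc22a18 (2.22 ± 0.62, adjusted p = 0.0161) were higher in the KSR-iPSCs, 3 of 6 cluster genes, where 23.0% of all genes were called and 11.0% were higher. Cd81 at -0.44 (adjusted p = 0.142), Ascl2 at -0.000157 and Tssc4 at -0.04 were not called. Of 11 genes tested around the cluster, 3 were also called higher, Tnfrsf26 (3.46), Osbpl5 (2.78) and H19 (1.82), and 1 lower. A rise against TX 2i ESCs was thus not particular to the cluster. The call of Slc22a18 was lost without TX 2i ESCs replicate 1 or 3, without the filter on low values and by limma-voom (adjusted p up to 0.160). Neither of the 2 genes with enough allelic reads, Cd81 and Tssc4, was called in share, where 20.5% of all genes were. Medium, cell type and line cannot be told apart in this comparison.

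Female against male KSR-iPSC lines, 6 libraries each, gave a call for 0 of 6 cluster genes in level by limma, where 2.87% of all genes were called. Cd81 had a log2 difference of 0.67 ± 0.21 (SE, adjusted p = 0.0950) and Ascl2 of 1.07 ± 0.46 (adjusted p = 0.219). Cdkn1c stood at 0.63 (adjusted p = 0.602) and Phlda2 at 0.40 (adjusted p = 0.809), with each sex holding 1 line high and 1 line low. In maternal share, Cd81 was 61.1% in the female and 65.8% in the male lines, -4.74 percentage points, with a two-sided exact permutation p = 0.00433 that became 0.121 after Benjamini-Hochberg adjustment over 28 such tests. Tssc4 was 51.7% and 59.1%, -7.42 points (exact permutation p = 0.0390, adjusted 0.400). In limma the Cd81 share missed the threshold (-0.29 on the log2 ratio, adjusted p = 0.0667) where 15.9% of all genes passed it. Libraries of the same line are not independent, but the permutation tests and limma in level treat them as if they were. Limma in share used only the spread within groups and none between the lines of a sex. The p-values of all these tests therefore do not stand for a spread between independent lines of a sex. Sex and embryo cannot be told apart.

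The genes around the cluster give it a frame, from a list of 14 neighbours of which 11 were tested in level. None of the 11 was called in F KSR4 against F KSR2, where 1.14% of all genes were. In M KSR5 against M KSR3, where 4.48% of all genes were called, 1 rose. It was Igf2, the growth factor of the neighbouring imprinted pair (log2 difference 2.52 ± 0.52 SE, limma adjusted p = 0.0120). Nap1l4 and Cars, the next genes beyond Phlda2, were read from both alleles in all groups, at 51.6 to 57.4% and 45.1 to 52.2% maternal, and were not called in share. H19, the maternal RNA of that pair, was 99.9% maternal in MEFs and 47.1 to 64.3% in the pluripotent groups. Of the 8 to 10 neighbours tested in share against MEFs, limma called 2 or 3 lower and 1 or 2 higher in each group. Of all genes, 11.1 to 20.7% were called there.

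Further out, Tnfrsf23, a decoy receptor of the TNF family, shifted from the maternal to the paternal allele. It had 486 maternal and 187 paternal reads in MEFs, 72.7% ± 2.5 maternal (SD, n = 3). In the pluripotent groups its maternal and paternal reads were 10 and 120 in F KSR2, 14 and 92 in F KSR4, 3 and 79 in M KSR3, 10 and 84 in M KSR5 and 3 and 118 in TX 2i ESCs. The group means were thus 3.0 to 13.2% maternal, and limma called a lower share in all 5, with log2 ratios of -3.96 in F KSR4 (adjusted p = 0.000548) to -5.78 in TX 2i ESCs (adjusted p = 3.59e-06). Its neighbour Tnfrsf26 had 27 maternal and 13 paternal reads in MEFs, 0 and 48 in M KSR3 and 0 and 21 in M KSR5, and was called lower in all 4 KSR-iPSC lines. Neither differed in share between lines of the same sex.

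Of 11 genes of the silencing machinery that acts on imprinted domains, such as Ezh2 of Polycomb complex 2, Ehmt2 (G9a) and Dnmt1 with its partner Uhrf1, 9 to 11 rose against MEFs in the 5 groups, where 34.6 to 39.4% of all genes rose. By limma 0 of 11 differed in level between F KSR4 and F KSR2 or between M KSR5 and M KSR3, where 1.14 and 4.48% of all genes were called, a background that so short a list cannot be told from. Of the other inhibitors of the p57 family, Cdkn1a (p21) fell against MEFs in all 5 groups and Cdkn1b (p27) in the 4 KSR-iPSC lines, where 28.2 to 31.2% of all genes fell. In M KSR5 against M KSR3 they stood at -0.10 and 0.21, and in F KSR4 against F KSR2 at 1.42 (adjusted p = 0.0552) and 0.18 (adjusted p = 0.877), none of them called. In maternal share, limma called 1 of these 2 genes higher and 1 lower in F KSR2 against MEFs, where 16.2% of all genes were called. In F KSR4 against F KSR2 it called 1 of the 2 lower, where 9.21% of all genes were called.

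Phlda2 and Ascl2 are known from trophoblast, so 9 trophoblast markers were read beside them. Their summed level was 14.3 to 64.2 RPM in F KSR4 and 20.6 to 80.3 in F KSR2, 26.1 to 57.0 in M KSR5 and 12.3 to 17.1 in M KSR3, with 13.3 to 24.4 in TX 2i ESCs and 11.0 to 22.7 in MEFs. The male lines did not overlap in this sum and the female lines did. By limma 0 of the 6 tested were called between lines of the same sex, where 1.14% (female) and 4.48% (male) of all genes were. Krt7, a keratin of simple epithelia, had 53, 95 and 302 reads in F KSR4 and 9, 43 and 179 in F KSR2 (log2 difference 1.54, adjusted p = 0.350). It had 135, 124 and 207 reads in M KSR5 and 21, 26 and 23 in M KSR3 (2.74, adjusted p = 0.0674). Against TX 2i ESCs, 2 of the 6 were higher in the KSR-iPSCs, where 11.0% of all genes were, Krt7 (2.99, adjusted p = 0.00289) and Gcm1 (1.88, adjusted p = 0.0289). Elf5 had 0 to 11 reads and Cdx2 0 to 87 in any library. The part of these cells in the levels of Phlda2, Cdkn1c and Slc22a18 was not tested.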

How the data were processed

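RNA-seq of 18 libraries in 6 groups of 3 was used. Per the labels and the study's methods, the authors prepared strand-specific polyA libraries and trimmed reads with Trim Galore 0.6.1. They aligned them with HISAT2 2.1.0 to GRCm38 and counted reads per gene in SeqMonk, in total and per allele (genome 1 BL6, genome 2 CAST). The deposited values are log2 RPM without length correction, with a gene without reads set at the value of 0.9 read, and no counts were given. Whole reads were recovered from the step of 1 read within 0.05 read. Genes were matched by symbol, since the ID column often held a neighbour's ID. The 8 cluster genes and all gene lists were chosen with earlier results of these data known, the search for like genes over 15 libraries and the line as a random effect were added after the values were seen.

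Levels above 0 (log2) in at least 3 libraries were tested with limma 3.58.1 (R 4.3.3) in 1 fit of 18 libraries (14632 genes), or 12 for sex (13609 genes), with Benjamini-Hochberg adjustment over all genes at 0.05. Shares were tested with limma on log2 of maternal over paternal reads, each plus 1, in libraries with at least 5 allelic reads and groups with at least 2 such libraries. A size against MEFs without paternal reads thus depends on that 1 and on the number of allelic reads. Percentages were tested by exact permutation (scipy 1.17.1). Data were also simulated with the same spread set for every gene and changes given only to well-read genes. There 37% of 2-fold and 100% of 4-fold changes in level were recovered for F KSR4 against F KSR2. For M KSR5 against M KSR3 these were 41 and 100%. Such rates do not carry over to noisier cluster genes, since Phlda2, with a log2 difference of 2.42, was not called in F KSR4 against F KSR2. Exact Poisson, binomial and Wilson intervals are at 95% and cover counting error only. A 0 count was read as allowing up to 3 reads. Genes named are the cluster genes and those of the lists. Alternatives tried were another pseudocount, filters, median of ratios scaling, limma-voom, a replicate block, the allelic read minimum, the allele values as deposited and each library left out.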

Additional observations from a re-analysis of the deposited data

Results flagged for a closer look

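In 4 results a line differed from the other line of its sex by a test of the difference itself, all in limma with adjustment over all genes. Cdkn1c was higher in F KSR4 than in F KSR2 by 1.91 on the log2 scale. It was higher in M KSR5 than in M KSR3 by 2.20, and Phlda2 by 3.19. The maternal share of Cdkn1c was higher in F KSR4 than in F KSR2 by 3.04 on the log2 ratio scale. Dixon's check for a single library far from the others needs at least 4 samples, so no library could be checked within its group of 3. Over the pooled libraries of both lines of a sex, 22 such checks flagged no library. A difference between the pooled lines can hide such a library there.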

How the results depend on the processing

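Of 35 called differences of the cluster genes, those in level of Cdkn1c, Phlda2, Ascl2 and Tssc4 against MEFs and of Cdkn1c and Phlda2 against TX 2i ESCs kept direction and call under all alternatives tried. For F KSR4 against F KSR2 in level, the 1 called gene became 2 with 1 RPM added, 0 without the filter on low values and 2 by limma-voom, and 0 to 3 when 1 library was left out. For M KSR5 against M KSR3 the 2 called became 0 to 3 when 1 library was left out. In share, the 1 called gene of F KSR2 against MEFs, and that of F KSR4 against F KSR2, became 0 at a minimum of 10 or 20 allelic reads, since Cdkn1c had 8 or 9 in F KSR2 and could not be fitted. Leaving out 1 library gave 0 to 1 called genes in share for M KSR3 against MEFs (Tssc4 without M KSR3 replicate 3, adjusted p = 0.0379) and for female against male lines (Cd81 without F KSR4 replicate 1, adjusted p = 0.0180, and Tssc4 without M KSR3 replicate 3, adjusted p = 0.0442), by limma. The share of Cd81 in KSR-iPSCs against TX 2i ESCs, 0.21 on the log2 ratio, turned to -0.0816 with the allele values as deposited. The cause was not tested. Of 51 turned directions in all, 50 were of differences under 1 SE.

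The replicate numbers were not taken to pair the libraries. Over 45 pairs of same-numbered libraries the correlation of deviations ran from -0.197 to 0.382, with 13 above 0.1. For F KSR2 with TX 2i ESCs all 3 were above 0.1 (0.170 to 0.252) and each library was best with its own number, as each was for F KSR4 with TX 2i ESCs, a hint from the data that the labels do not give. With the replicate number as a block, calls over all genes in F KSR4 against F KSR2 went from 167 to 282, and Cdkn1c was still the 1 cluster gene called. The block changed no call of a cluster gene. Female against male calls over all genes went from 390 to 138 with the line as a random effect, chosen after seeing the data, and to 232 without the filter. Low allelic depth limited Cdkn1c in F KSR2, M KSR3 and TX 2i ESCs and Slc22a18 and Kcnq1 in every group.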
